A study of Mus musculus with 14 samples.

Results

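The comparison described here set THY-Tau22 mice that received CSP-TTK21 and learned a spatial task (TAU MOL, 2 libraries) against wild-type mice that stayed in their home cage (WT VEH_HC, 3 libraries). These are 5 of the 14 samples of the series, and all 16820 genes tested out of 25933 listed were compared. Each library was made from the dorsal hippocampus of 1 male C57BL6 mouse aged 8 months. THY-Tau22 mice carry a mutated human tau transgene under a Thy1 promoter that is active in neurons. TAU MOL mice were injected with TTK21, an activator of the acetyltransferases CBP and p300, coupled to carbon nanospheres (CSP), and were trained in the Morris water maze before they were killed. WT VEH_HC mice carried no transgene, received saline and were not trained. Genotype, training, the molecule and the nanosphere carrier therefore changed together, and their parts in any difference cannot be told apart within this pair of groups. The other trained groups of the same experiment were wild-type mice given saline (WT VEH, 2 libraries) and THY-Tau22 mice given the nanospheres alone (TAU VEH, 2 libraries), and a separate experiment held untrained mice, 2 THY-Tau22 and 3 wild-type (the basal experiment).

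When neurons fire, calcium and cAMP signals activate the transcription factor CREB, which recruits CBP and p300 to the promoters of immediate early genes (IEGs) such as Fos, Egr1 and Arc. The IEG products then regulate later genes of synaptic plasticity, while phosphatases of the Dusp family and Sprouty-related proteins limit the ERK kinase signal that induces them. Tau pathology in the hippocampus is known to come with reactive astrocytes and microglia and with loss of synapses.

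The 5 libraries held 38528559 to 52180305 counted reads. Levels below are CPM of the library after TMM scaling (TMM CPM, read counts over a scaled library total), which allow the libraries to be compared for 1 gene but not 1 gene with another. Fold changes are log2 values of TAU MOL over WT VEH_HC, each with its standard error (SE), and adjusted p values are Benjamini-Hochberg values of edgeR's quasi-likelihood test over all 16820 genes. A gene was called changed at an adjusted p under 0.05 and a log2 fold change beyond 0.2 in either direction. Under this rule 4864 genes were called (28.9% of those tested), 2353 higher in TAU MOL (14%) and 2511 lower (14.9%). Most changes were small, since 712 of the increases and 520 of the decreases exceeded 0.5 on the log2 scale and 130 and 93 exceeded 1. The libraries of both groups did not overlap for 9036 genes (53.7%), which were 4382 with both TAU MOL libraries above all 3 WT VEH_HC libraries and 4654 with both below.

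Several properties of the libraries moved with the groups. Fold changes fell with the GC content of the gene (Spearman's rho -0.57 across genes, which are not independent), and the calls followed it. In the fifth of genes with the lowest GC content 1372 genes were called higher and 39 lower, and in the fifth with the highest GC content 56 were called higher and 1341 lower. Relative to the mean of all 9 libraries, the rho of expression with GC content was -0.40 and -0.47 in TAU MOL and 0.42 to 0.46 in WT VEH_HC. When each library was first corrected for the GC content and length of its genes, rho was -0.03 and 1594 genes were called (9.48%), 827 higher (4.92%) and 767 lower (4.56%). Both fits called 1217 genes in the same direction, 615 higher and 602 lower, and 282 genes called without the correction had the opposite sign with it. Most counts below are therefore given with and without the correction, and their dependence on GC content beyond this correction was not tested. Each list count below stands against the shares over all genes, 14% higher and 14.9% lower without the correction and 4.92% and 4.56% with it. With scaling by library size alone the median of all genes moved from -0.01 to 0.13 and the calls became 4430 higher and 1146 lower, so changes are given relative to the TMM scaling. Among the home-cage libraries, replicate 2 stood apart in its cell type markers, with a summed level of 18 oligodendrocyte markers of 4444 TMM CPM against 7846 and 8765 in the other two and of 18 endothelial and pericyte markers of 658 against 402 and 453. Without this library 4516 genes were called.

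**Figure D1:**
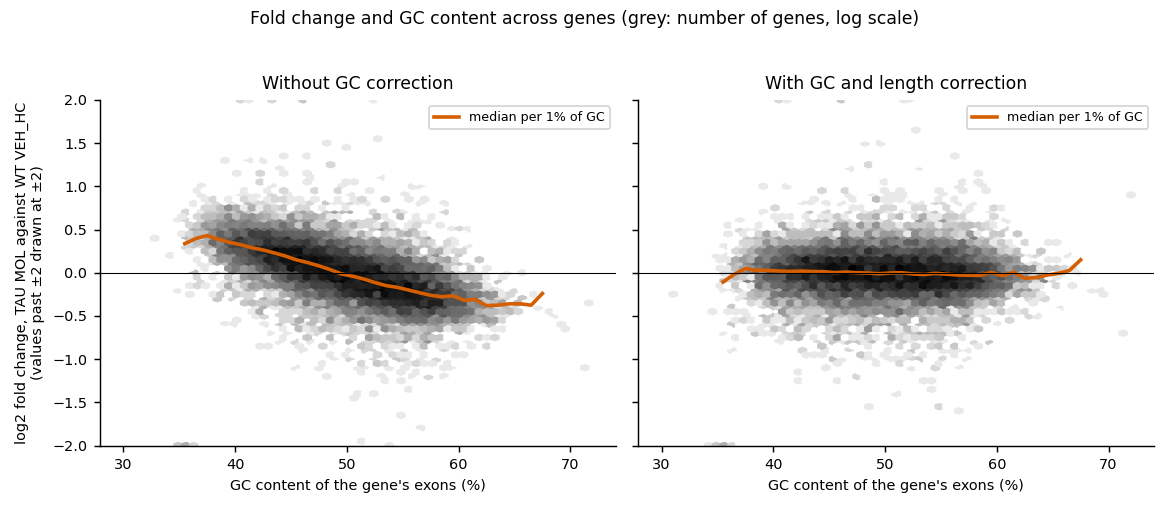
Log2 fold change of TAU MOL over WT VEH_HC (vertical axis, values past 2 drawn at the edge) against the GC content of each gene's exons in percent (horizontal axis), without the GC correction (left) and with it (right). Shading gives the number of genes on a log scale and the line is the median for each percent of GC. The medians slope downward on the left, where rho is -0.57, and are flat on the right, where it is -0.03.

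Many IEGs were called higher in the trained, treated transgenic mice. Arc, Nr4a1, Fos, Egr1, Junb and Dusp1 were all called higher, with and without the GC correction and without any 1 of the 5 libraries, with a median log2 fold change of 0.97 against -0.01 over all genes. The authors picked these IEGs on these samples, so that count is not independent evidence. Of 21 IEG transcription factors tested, 11 were called higher and 2 lower, and with the correction 13 higher and 0 lower.

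CREB binds the letters TGACGTCA or the shorter core TGACG. The promoter windows of 4 genes called higher are printed to show how differently such cores lie in them. They come from RefSeq on build GRCm38.p6, not the mm9 build of the counts, and run 5′ to 3′ on the gene's strand from 250 bases before the start site to 50 after it. Capitals mark TGACG on either strand (CGTCA on the opposite one), or the full TGACGTCA.
Fos, chr12:85473640-85473939, plus strand: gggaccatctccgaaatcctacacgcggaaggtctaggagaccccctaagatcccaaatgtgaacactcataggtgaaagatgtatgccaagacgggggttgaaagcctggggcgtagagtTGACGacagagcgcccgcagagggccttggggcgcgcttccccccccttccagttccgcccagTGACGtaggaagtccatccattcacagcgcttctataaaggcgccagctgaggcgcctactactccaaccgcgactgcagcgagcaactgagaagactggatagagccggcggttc
Nr4a1, chr15:101266596-101266895, plus strand: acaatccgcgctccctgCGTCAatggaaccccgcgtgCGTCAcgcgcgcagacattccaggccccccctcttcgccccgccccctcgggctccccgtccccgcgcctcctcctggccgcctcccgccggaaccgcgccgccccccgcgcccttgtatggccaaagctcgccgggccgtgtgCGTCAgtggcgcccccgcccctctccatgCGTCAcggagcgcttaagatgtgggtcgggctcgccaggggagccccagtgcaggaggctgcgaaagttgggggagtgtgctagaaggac
Dusp1, chr17:26508423-26508722, minus strand: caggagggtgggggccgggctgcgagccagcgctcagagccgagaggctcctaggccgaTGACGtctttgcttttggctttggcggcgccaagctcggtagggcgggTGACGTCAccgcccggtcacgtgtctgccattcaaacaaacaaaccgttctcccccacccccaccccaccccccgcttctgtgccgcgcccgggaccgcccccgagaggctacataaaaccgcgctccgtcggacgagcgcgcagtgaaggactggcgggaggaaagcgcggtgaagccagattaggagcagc
Egr2, chr10:67535249-67535548, plus strand: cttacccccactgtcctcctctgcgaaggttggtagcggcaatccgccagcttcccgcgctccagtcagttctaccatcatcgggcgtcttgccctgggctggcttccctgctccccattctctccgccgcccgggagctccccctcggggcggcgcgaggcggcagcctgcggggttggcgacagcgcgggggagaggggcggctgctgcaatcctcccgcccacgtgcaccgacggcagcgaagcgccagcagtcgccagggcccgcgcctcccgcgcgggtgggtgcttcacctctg
The Fos window held 2 cores, the Nr4a1 window 4 and the Egr2 window 0, and the Dusp1 window held 3 matches of which 2 formed the full motif on both strands. The core was found in 25 of the 44 windows available for the 59 genes of the IEG, effector and ERK feedback lists (56.8%) and in 10 of the 15 available for the 21 of them that were called higher in both fits (66.7%). Of all 27025 RefSeq promoter windows of this length, 5681 held it (21.0%) and 507 held the full motif (1.88%), which was in 5 of the 44 windows (11.4%) and in 1 of the 15 (6.67%). The lists were made of genes known to respond to activity, and the windows of all promoters were not matched to them in GC content. These matches describe letters in a window and no binding was measured here.

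Egr2, a zinc finger transcription factor, showed the largest increase of the IEGs. Its level was 8.12 and 9.45 TMM CPM in TAU MOL and 0.788, 0.765 and 0.737 in WT VEH_HC. The fold change was 3.52 on the log2 scale (SE 0.19, adjusted p = 5.39e-06), and all home-cage libraries were at a near-identical low level. Fos, a subunit of the AP-1 factor, was at 19.1 and 20.6 TMM CPM in TAU MOL and at 5.11, 5.30 and 3.97 in WT VEH_HC (log2 fold change 2.05, SE 0.13, adjusted p = 2.15e-05). Arc, which acts at synapses on AMPA receptor endocytosis, was at 339 and 424 TMM CPM in TAU MOL and at 144, 146 and 143 in WT VEH_HC. Its fold change was 1.40 (SE 0.09, adjusted p = 2.15e-05), and the treated libraries lay far above the home-cage ones. The nuclear receptor Nr4a1 was at 95.9 and 121 TMM CPM in TAU MOL against 62.1, 53.7 and 54.8 (log2 fold change 0.93, SE 0.10, adjusted p = 0.00049). Egr1, a zinc finger factor widely used as a marker of plasticity, was at 281 and 313 TMM CPM against 150, 130 and 161 (log2 fold change 1.02, SE 0.14, adjusted p = 0.000931). Junb, another AP-1 subunit, changed by 0.77, Atf3, a stress-induced factor, by 1.30 and the phosphatase gene Dusp1 by 0.53. Npas4, a neuron-specific factor induced by depolarization and chosen here after its values were seen, was at 10.1 and 14.9 TMM CPM against 5.95, 4.83 and 6.87. For these genes both TAU MOL libraries lay above all home-cage libraries.

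Not all IEG factors moved this way. Jun was at 113 and 140 TMM CPM in TAU MOL and 116, 150 and 132 in WT VEH_HC, a log2 fold change of -0.07 (SE 0.11, adjusted p = 0.695). Jund, the AP-1 subunit with high constant expression, was called lower (log2 fold change -0.42), a call lost with the GC correction (adjusted p = 0.301). Egr3 had a log2 fold change of 0.04 without the correction and 0.32 with it, where it was called (adjusted p = 0.032). Jun and Egr3 were also named after their values were seen.

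Of 24 activity-induced effector genes, 8 were called higher and 0 lower, with a median of 0.17. Besides Arc they included the postsynaptic scaffold gene Homer1 (log2 fold change 0.57), the kinase gene Sik1, which feeds back on CREB coactivators (0.71), and Trib1, a pseudokinase gene (0.59). With the GC correction 7 were called higher and 1 lower, with scaling by library size alone 13 and 0, and without TAU MOL replicate 2 the counts were 4 and 0. Bdnf, the neurotrophin gene classically induced by activity, was at 36.4 and 48.0 TMM CPM in TAU MOL and at 35.6, 34.8 and 39.8 in WT VEH_HC. Its log2 fold change of 0.20 did not pass the test (SE 0.11, adjusted p = 0.18). Leaving out TAU MOL replicate 1 gave 0.39, which was called (adjusted p = 0.0332), and leaving out replicate 2 gave -0.01. Bdnf was also called with scaling by library size alone (0.34, adjusted p = 0.0216).

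Of 13 ERK feedback genes, 5 were called higher and 2 lower. Dusp5, a nuclear phosphatase specific for ERK, had the largest increase of the list, at 38.7 and 41.4 TMM CPM in TAU MOL against 22, 18.5 and 18.5 in WT VEH_HC (log2 fold change 1.03, SE 0.08, adjusted p = 0.0001). Dusp6, its cytoplasmic relative, was called higher by 0.57 and Spred1, an inhibitor of Ras signalling, by 0.58. The 2 decreases, Spry1 (-0.29) and Spred3 (-0.24), were lost with the GC correction, where 5 were called higher and 0 lower, and without either TAU MOL library (adjusted p = 0.0608 to 0.181), and Spry1 also without home-cage replicate 2 or 3 (adjusted p = 0.0725 and 0.0667).

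**Figure D2:**
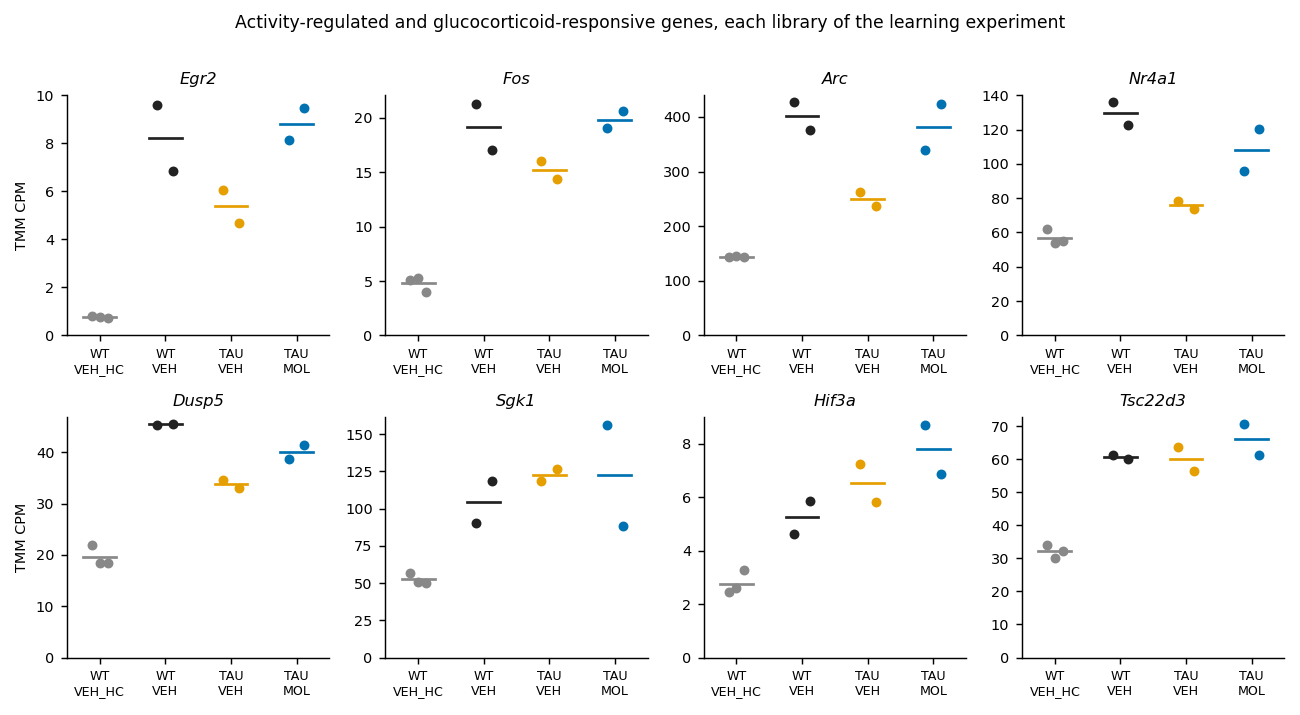
TMM CPM (vertical axis, from 0) in each library of the 4 groups of the learning experiment for Egr2, Fos, Arc, Nr4a1, Dusp5, Sgk1, Hif3a and Tsc22d3, with points for libraries and bars for group means. In each panel both TAU MOL libraries sit above all 3 WT VEH_HC libraries, for example 339 and 424 against 143 to 146 for Arc.

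The other trained groups allow these levels to be placed. Arc was at 427 and 375 TMM CPM in WT VEH and at 263 and 236 in TAU VEH. The direct difference of TAU MOL from WT VEH was -0.07 on the log2 scale (SE 0.10, adjusted p = 0.767). From TAU VEH it was 0.61 (SE 0.10), which edgeR did not call (adjusted p = 0.213) and DESeq2 did (adjusted p = 3.52e-05). For Nr4a1 the difference from TAU VEH was 0.51 (adjusted p = 0.254 by edgeR and 0.00492 by DESeq2). Egr2 differed from TAU VEH by 0.69 (SE 0.18) and Fos by 0.38 (SE 0.14), and neither tool called them. Over all genes, edgeR called 0 between TAU MOL and TAU VEH (0% of 16820), with 1064 at an unadjusted p under 0.05, while DESeq2 called 54 of 17888 (0.302%). In the basal experiment, which shares no library with this one, Arc was at 80.8 and 61.7 TMM CPM in untrained THY-Tau22 mice and at 293, 233 and 189 in untrained wild-type mice. That log2 difference was -1.74 (adjusted p = 0.0261), and Arc was 1 of 4 genes called there (0.0245% of 16324), with Nr4a1, Thy1 and Mvd. The direction of Arc and Nr4a1 in the untrained pair was opposite to that in the pair described here.

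Part of the genes that respond to glucocorticoids was called higher. Of 17 glucocorticoid response genes, 10 were called higher and 0 lower, also 10 and 0 with the GC correction, with a median of 0.41. The count fell to 6 without TAU MOL replicate 1 and to 7 without replicate 2. Plin4, which coats lipid droplets, was at 8.64 and 7.41 TMM CPM in TAU MOL against 1.86, 3.18 and 2.15 in WT VEH_HC (log2 fold change 1.73, SE 0.25, adjusted p = 0.00104). Hif3a, a hypoxia-inducible factor subunit, was at 8.70 and 6.88 against 2.44, 2.60 and 3.27 TMM CPM (log2 fold change 1.49, SE 0.17, adjusted p = 0.000669). Sgk1, a kinase regulated by serum and corticosteroids, was at 156 and 88.6 TMM CPM in TAU MOL against 56.8, 50.9 and 49.8. Its TAU MOL libraries differed widely from each other, and both were above every home-cage library (log2 fold change 1.22, SE 0.18, adjusted p = 0.00115, and 0.76 without TAU MOL replicate 1). Tsc22d3, which encodes the anti-inflammatory leucine zipper protein GILZ and was chosen after its values were seen, was at 70.8 and 61.1 against 34.2, 30.0 and 32.3 TMM CPM (log2 fold change 1.04, SE 0.08, adjusted p = 0.000103). Fkbp5, a chaperone gene that glucocorticoids classically induce, was at 71.5 and 78.4 TMM CPM in TAU MOL and 64.9, 68.6 and 77.0 in WT VEH_HC, and its fold change of 0.09 did not pass the test (adjusted p = 0.446). Plekhf1, a gene of the endosomal system in no list, was among the 12 largest increases, at 9.08 and 6.58 TMM CPM against 2.52, 1.75 and 2.38 (log2 fold change 1.83, SE 0.18). In the other trained groups Sgk1 was at 90.7 and 119 TMM CPM in WT VEH and 118 and 127 in TAU VEH. The direct difference of TAU MOL was 0.23 (adjusted p = 0.605) from WT VEH and 0.00 (SE 0.20) from TAU VEH.

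Of 18 circadian clock genes, 8 were called higher and 4 lower. Nr1d2, a repressor of the clock loop, rose by 0.72, Clock by 0.58 and Per2 by 0.49 on the log2 scale. Cry2 (-0.38), Npas2 (-0.37) and Nr1d1 (-0.34) were called lower, and with the GC correction 6 clock genes were called higher and Cry2 alone lower. The counts were 3 and 2 without TAU MOL replicate 1, and Nr1d1 was lost without either TAU MOL library or home-cage replicate 3 (adjusted p = 0.064 to 0.158). Of 17 cytosolic heat shock genes, 8 were called higher and 2 lower, and 6 and 0 with the correction. The chaperone genes Hsp90aa1 (0.50) and Hspa1b (0.43) were called in both fits, and the cochaperone gene Chordc1 (0.57) only without the correction. Without TAU MOL replicate 2 the counts were 4 and 0, with Hspa1b at an adjusted p of 0.0545.

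Genes of the choroid plexus epithelium, which lines the ventricle beside the hippocampus and secretes cerebrospinal fluid, made up most of the largest increases. All 18 markers tested were called higher in both fits, with a median of 2.14, and 8 of the 12 largest increases among well-counted genes belonged to them. Leaving out TAU MOL replicate 1 left 16 called, with Folr1 at an adjusted p of 0.0542. Ttr, the thyroid hormone carrier and the most abundant marker, was at 630 and 582 TMM CPM in TAU MOL and at 31.5, 37.1 and 166 in WT VEH_HC (log2 fold change 2.95, SE 0.54, adjusted p = 0.00246). Home-cage replicate 3 was well above the other two, and without it the fold change was 4.14. Kcne2, a potassium channel subunit with too few counts for the ranking of the 12 largest, was at 2.85 and 2.77 TMM CPM against 0.153, 0.161 and 0.585 (log2 fold change 3.20, SE 0.40, adjusted p = 0.000783). The bicarbonate transporter gene Slc4a5 (2.73), the water channel gene Aqp1 (2.45), the coagulation factor gene F5 (2.12), the chloride channel gene Clic6 (2.05), Mfrp (2.16), the transcription factor gene Otx2 (1.90) and the folate receptor gene Folr1 (1.88) were further increases among the 12 largest, as was 1500015O10Rik (2.03), which is in no list. Without home-cage replicate 3 the median of the list was 2.70, with Kcne2 at 4.13, Slc4a5 at 3.34, Aqp1 at 3.14, Mfrp at 2.97, Clic6 at 2.75 and Folr1 at 2.5. Kl, the klotho gene, was at 62.1 and 56.6 TMM CPM in TAU MOL against 32.9, 29.5 and 38.5 (log2 fold change 0.82, SE 0.11, adjusted p = 0.000924). The authors showed Kl, and Nts, Mvd, Cyp46a1 and Kcnh3 below, from these same samples, so their values here are not independent evidence.

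The summed level of the 18 choroid plexus markers was 815 and 744 TMM CPM in TAU MOL, 93.4, 89.6 and 253 in WT VEH_HC, 2543 and 1647 in WT VEH, and 256 and 302 in TAU VEH. TAU MOL lay between the other trained groups. In this bulk tissue, more cells of a type and more RNA per cell cannot be told apart. Against WT VEH, 11 of the 18 markers were called lower in TAU MOL, and with the GC correction 1, the Wnt and BMP antagonist gene Sostdc1, named after its values were seen. With a score of these markers as a covariate, 46 genes were called between TAU MOL and WT VEH_HC, 6 higher and 40 lower, and 2050 had an unadjusted p under 0.05. Egr2, Fos, Arc, Dusp5, Thy1 and the lower Dlgap3 and Iqsec2 were called in that fit. The markers differ between the groups themselves, and most calls were lost there, for a reason not tested. Some fold changes stayed about as large, and others shrank or turned sign. The median was 0.97 for the 6 IEGs above, 0.41 for the IEG transcription factors and -0.41 for postsynaptic scaffold genes (0.97, 0.44 and -0.42 without the covariate), and Arc was at 1.42 and C4b at 0.65. With the covariate the median moved from 0.35 to 0.13 for disease-associated microglia and from 0.41 to 0.27 for glucocorticoid response genes. It moved from -0.35 to -0.23 for synaptic vesicle and SNARE genes, 0.27 to -0.02 for GABA-A receptor genes and 0.26 to -0.22 for cytosolic ribosomal protein genes.

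**Figure D3:**
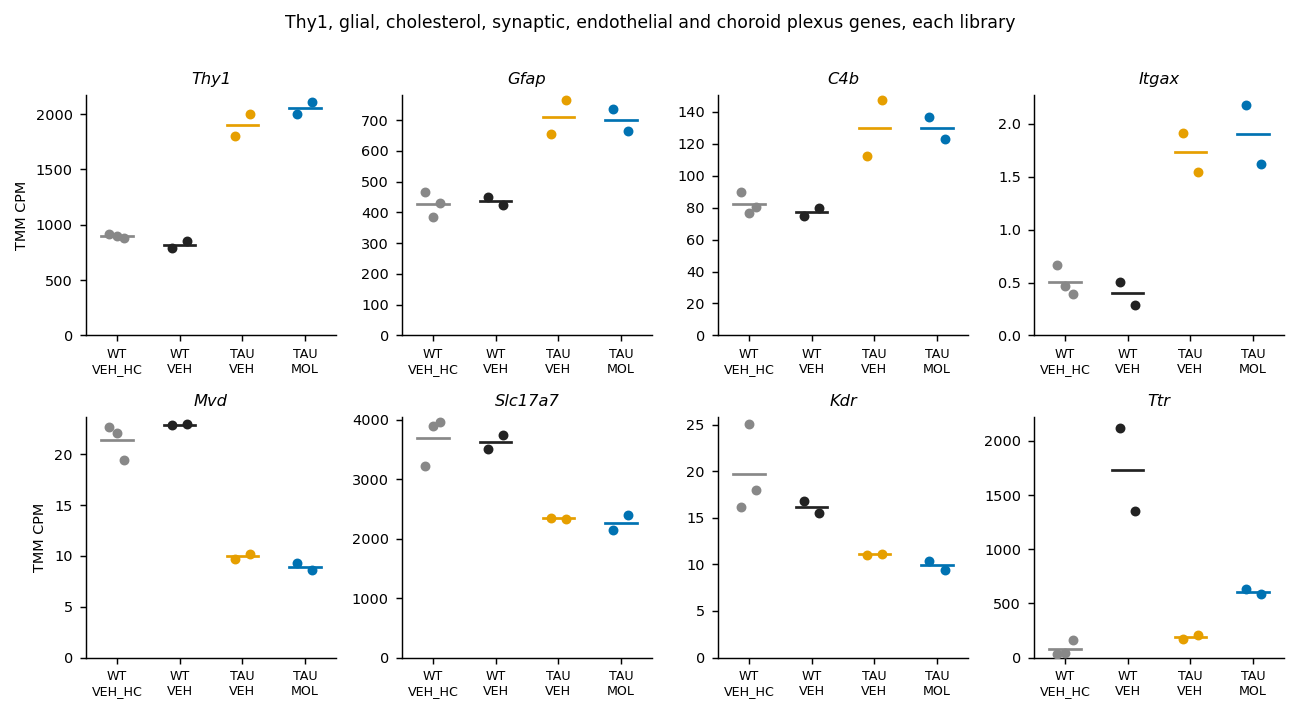
TMM CPM (vertical axis, from 0) in each library of the 4 groups of the learning experiment for Thy1, Gfap, C4b, Itgax, Mvd, Slc17a7, Kdr and Ttr, with points for libraries and bars for group means. TAU MOL and TAU VEH lie together and apart from both WT groups for Thy1 and Mvd, whereas Ttr runs from 31.5 TMM CPM in a home-cage library to 2118 in a WT VEH library.

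Thy1, the mouse gene whose promoter drives the transgene, was counted at 2000 and 2109 TMM CPM in TAU MOL and at 913, 899 and 884 in WT VEH_HC. The log2 fold change was 1.19 (SE 0.06, adjusted p = 5.39e-06), and TAU VEH libraries were at 1805 and 1998. The difference from WT VEH was 1.32 (adjusted p = 1.3e-05), and untrained THY-Tau22 mice differed from their controls by 1.33 (adjusted p = 0.016). The labelled genotypes and this gene went together in every library. Mouse Mapt, the endogenous tau gene, was at 783 and 740 TMM CPM in TAU MOL against 875, 860 and 786, a log2 fold change of -0.14 that did not pass the test (adjusted p = 0.12). It overlaps another annotated gene, and human tau reads were not counted separately.

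Crebbp and Ep300, the genes of the acetyltransferases that TTK21 activates, did not pass the test, with log2 fold changes of -0.11 (SE 0.07, adjusted p = 0.256) and 0.06 (SE 0.07, adjusted p = 0.552). Of 13 acetyltransferase and CREB pathway genes, 3 were called higher and 4 lower, 2 and 1 with the GC correction and 3 and 2 with scaling by library size alone. These were 2 and 2 without TAU MOL replicate 1 and 3 and 2 without replicate 2. Kat2b, the PCAF acetyltransferase gene, rose by 0.63 and Creb1 by 0.60, both in both fits, and Kat2b was lost without TAU MOL replicate 1 (adjusted p = 0.0717). Crem (0.55), the CREB coactivator gene Crtc1 (-0.53) and the acetyltransferase gene Kat2a (-0.43) were called only without the GC correction. Of 15 histone deacetylase genes 3 were called higher and 6 lower, 1 and 0 with the correction and 3 and 2 with scaling by library size alone. These counts were 1 and 4 without TAU MOL replicate 1, 1 and 2 without replicate 2, and 1 and 6 without home-cage replicate 2.

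Several genes of glial activation were called higher in TAU MOL, while most of the reactive astrocyte list was not. Gfap, the intermediate filament gene of astrocytes, was at 735 and 664 TMM CPM in TAU MOL against 465, 386 and 429 in WT VEH_HC (log2 fold change 0.71, SE 0.09, adjusted p = 0.000783). C4b, a complement component, was at 137 and 123 TMM CPM against 89.9, 76.6 and 80.2 (log2 fold change 0.66, SE 0.11, adjusted p = 0.00151). Itgax, an integrin gene of reactive microglia, was at 2.18 and 1.62 TMM CPM against 0.661, 0.463 and 0.390 (log2 fold change 1.92, SE 0.29, adjusted p = 0.00111). These 3 genes belong to a set of 8 inflammatory genes, of which 5 were called higher and 0 lower, and 3 with the GC correction. The authors picked that set on these samples, so it is not independent evidence. The chemokine genes Ccl4 (1.81) and Ccl6 (0.75) were lost with the correction, at 1.75 (adjusted p = 0.0509) and 0.57 (adjusted p = 0.099), and without either TAU MOL library (adjusted p = 0.0549 to 0.156). Without home-cage replicate 3 Ccl4 was at 2.59. Ccl9 (0.55, adjusted p = 0.135), Cd74 (0.24, adjusted p = 0.604) and Irf8 (0.21, adjusted p = 0.165) did not pass either fit, though Cd74 was called without home-cage replicate 2 (log2 fold change 0.74, adjusted p = 0.0108).

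The median of 26 genes of disease-associated microglia was 0.35, and 0.13 with the choroid plexus covariate, where 0 were called. Of them 16 were called higher and 1 lower, and with the GC correction 13 and 1. These counts fell to 5 and 0 without TAU MOL replicate 1 and to 10 and 0 without replicate 2. Clec7a, a receptor of reactive microglia, had the largest change of the list, at 0.868 and 1.10 TMM CPM in TAU MOL against 0.280, 0.0806 and 0.0867 (log2 fold change 2.76, SE 0.43, adjusted p = 0.00127, and 3.51 without home-cage replicate 1). Lyz2 (1.10) and Cst7 (1.56), both named after their values were seen, were called, Cst7 only without the correction and not without TAU MOL replicate 1 (adjusted p = 0.184), while it was at 2.17 without home-cage replicate 1. The member called lower was Lpl, the lipoprotein lipase gene (-0.36), lost without either TAU MOL library (adjusted p = 0.0775 and 0.0819). Trem2, the receptor gene that defines the state, was at 18.6 and 17.0 TMM CPM in TAU MOL against 16.6, 13.4 and 15.2 and did not pass the test (log2 fold change 0.24, adjusted p = 0.209). Of 14 homeostatic microglia genes 4 were called higher and 0 lower, with a median of 0.12, 7 and 0 with scaling by library size alone, and 2 and 0 with the correction and without either TAU MOL library. The summed level of that list was 623 and 571 TMM CPM in TAU MOL against 562, 519 and 562 in WT VEH_HC.

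Over all genes 14% were called higher and 14.9% lower, and 4.92% and 4.56% with the GC correction. The counts of this paragraph stand against those shares, and the interferon count below lay near the share called higher in both fits. Among 20 complement genes 5 were called higher and 0 lower, 7 with the GC correction and 10 with scaling by library size alone, including the receptor gene C3ar1 (1.02) and the inhibitor gene Cd59a (0.93). The reactive astrocyte list had 2 of 16 called higher, Gfap and the cytokine receptor gene Osmr (0.74), and 0 lower, and 5 higher without home-cage replicate 2. Of 20 interferon response genes 4 were called higher, 1 with the correction and 8 with scaling by library size alone, with Bst2 (0.54) the largest, and 0 without TAU MOL replicate 1, 1 without replicate 2, 2 without home-cage replicate 1 and 1 without home-cage replicate 3. Antigen presentation genes gave 1 higher and 3 lower of 15, against 2 and 0 with the correction and 3 and 1 with scaling by library size alone, and no member was called without TAU MOL replicate 2. The THY-Tau22 groups were also compared directly. DESeq2 called Lpl lower in TAU MOL than in TAU VEH (adjusted p = 0.0101), which edgeR did not (log2 difference -0.47, adjusted p = 0.254). Gfap differed between TAU MOL and TAU VEH by -0.02 (SE 0.10), C4b by 0.00 (SE 0.12) and Itgax by 0.12 (SE 0.29), and the lowest of these 3 adjusted edgeR p values was 0.992. In untrained mice Gfap differed by 0.65 and C4b by 0.90 between THY-Tau22 and wild type, and neither passed the test there (adjusted p = 0.28 and 0.235).

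Mvd, the mevalonate pathway enzyme that makes isopentenyl diphosphate for cholesterol, was at 9.26 and 8.63 TMM CPM in TAU MOL and at 22.7, 22.1 and 19.4 in WT VEH_HC. The log2 fold change was -1.26 (SE 0.09, adjusted p = 5.57e-05) and -1.02 with the GC correction. WT VEH libraries were at 22.8 and 23 TMM CPM and TAU VEH libraries at 9.69 and 10.2, so the split followed genotype in all 9 libraries. The difference from WT VEH was -1.36 (adjusted p = 0.000129), from TAU VEH -0.15 (adjusted p = 0.909), and that of untrained THY-Tau22 from wild-type mice -1.28 (adjusted p = 0.0274). Mvd lies on mouse chromosome 8 at 124957496 to 124967322 (mm9), and 9330133O14Rik lies 234 bases away at 124967556 to 124969547. That neighbour was at 1.56 and 1.65 TMM CPM in TAU MOL against 6.36, 5.68 and 5.55 (log2 fold change -1.87, SE 0.15, adjusted p = 0.0001). Both overlap an annotated read-through gene, and the libraries carry no strand. Of 9 genes tested within 100000 bases of Mvd, itself included, 5 were called lower and 0 higher, and with the GC correction Mvd and 9330133O14Rik alone.

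Of 27 genes of cholesterol synthesis and transport, 10 were called lower and 2 higher, with a median of -0.17, 5 and 1 with the GC correction and 7 and 5 with scaling by library size alone. Without TAU MOL replicate 2 the counts were 6 and 2. The demethylase gene Cyp51 (0.30) and the cholesterol exporter gene Abca1 (0.43) were called higher, and both were lost without TAU MOL replicate 1 (adjusted p = 0.117 and 0.0988). Cyp46a1, the neuronal cholesterol hydroxylase gene, was called lower (-0.30) and lost with the correction and without TAU MOL replicate 1 (adjusted p = 0.0722). Also lost with the correction was the potassium channel gene Kcnh3 (-0.48).

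Synaptic genes were among the decreases, in larger numbers without the GC correction. Of 32 synaptic vesicle and SNARE genes, 21 were called lower and 2 higher, with a median of -0.35, 17 lower and 1 higher with the GC correction, and 15 and 4 with scaling by library size alone. Slc17a7, the vesicular glutamate transporter of hippocampal pyramidal and granule cells, was at 2140 and 2400 TMM CPM in TAU MOL against 3223, 3890 and 3962 in WT VEH_HC (log2 fold change -0.70, SE 0.09, adjusted p = 0.000824; with the correction -0.45, adjusted p = 0.0103). Stx1a, a syntaxin of vesicle fusion, fell by 0.59 and the synapsin gene Syn1 by 0.56 on the log2 scale, both in both fits. Snap25, another fusion protein gene, named after its values were seen, had a log2 fold change of -0.05 without the correction and -0.37 with it, where it was called. The larger of the 2 increases was in Slc17a6, the transporter used mainly by thalamic and other subcortical neurons, at 12.7 and 9.5 TMM CPM against 4.2, 5.30 and 5.55 (log2 fold change 1.14, SE 0.21, adjusted p = 0.00241). The summed level of markers of the thalamus, cortex and subiculum was 259 and 223 TMM CPM in TAU MOL and 233 to 274 in WT VEH_HC, and its part in the Slc17a6 result was not tested.

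Of 23 postsynaptic scaffold genes, 15 were called lower and 2 higher, with a median of -0.42, 4 and 1 with the GC correction, and 12 and 5 with scaling by library size alone. Dlgap3 (-0.55) and Iqsec2 (-0.52) were lost with the GC correction. Camk2a, the abundant synaptic kinase gene named after its values were seen, was at 6988 and 7577 TMM CPM against 9309, 10780 and 11081 (log2 fold change -0.51, adjusted p = 0.00122).

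Glutamate receptor genes split by subunit. Of 16 AMPA and kainate receptor and auxiliary genes 9 were called lower and 5 higher, 4 and 0 with the GC correction, but 3 and 5 with scaling by library size alone. Without TAU MOL replicate 1 the counts were 3 and 2, and without replicate 2 they were 3 and 4. The kainate receptor genes Grik4 (-0.65) and Grik5 (-0.55) and the auxiliary gene Cacng8 (-0.45) were called lower in both fits. Gria2, the subunit that sets calcium permeability, was called higher (0.44) and lost with the correction (0.09), and Gria1 had a log2 fold change of -0.08 in both fits. Of 8 NMDA receptor genes 4 were called lower, led by Grin2c (-0.49) and Grin1 (-0.42), and 0 with the correction. Of 13 GABA-A receptor genes 7 were called higher and 1 lower, with Gabrg1 (0.53) showing the largest increase, and 0 with the correction, so neither family kept a call. Without TAU MOL replicate 1 the counts were 3 and 0, with Gabrg1 lost (adjusted p = 0.0978). Of 23 voltage-gated sodium and calcium channel genes 12 were called lower and 2 higher, 3 and 0 with the correction and 7 and 6 with scaling by library size alone, with the N-type channel gene Cacna1b (-0.48) among those kept. Cacna1a (-0.51) and Cacnb3 (-0.51) were lost. Potassium channel genes gave 25 lower and 8 higher of 80, against 5 and 5 with the correction and 13 and 15 with scaling by library size alone. Leaving out TAU MOL replicate 1 gave 11 and 5, and leaving out replicate 2 gave 14 and 5.

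**Figure D4:**
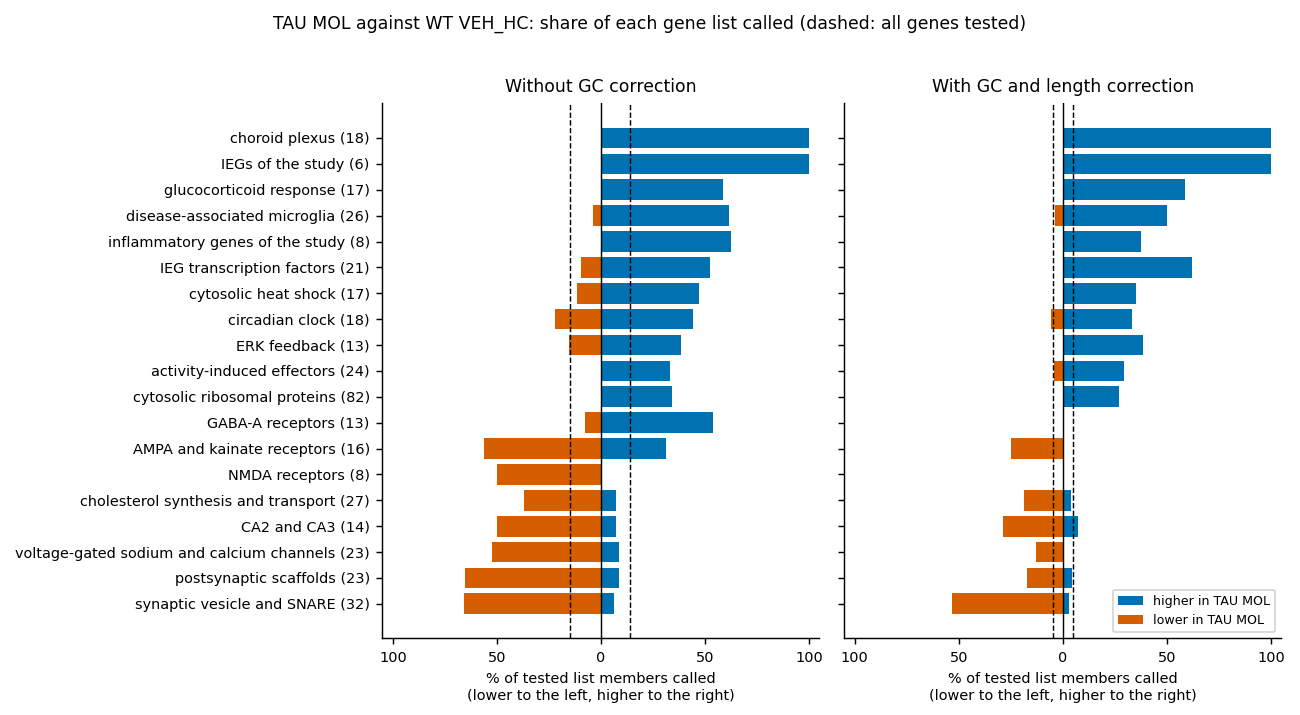
Percent of the tested members of each gene list called lower (bars to the left) or higher (bars to the right) in TAU MOL against WT VEH_HC, without (left panel) and with (right panel) the GC and length correction, with the number tested in parentheses. Dashed lines give the percent over all genes tested, 14 higher and 14.9 lower on the left and 4.92 and 4.56 on the right. Choroid plexus markers reach 18 of 18 in both panels, and the receptor lists shrink on the right.

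Markers of the CA2 and CA3 fields were among the decreases. Of 14, 7 were called lower and 1 higher, with a median of -0.30, and 4 and 1 with the GC correction. Grik4 belongs to this list as well and was at 66.1 and 66.7 TMM CPM in TAU MOL against 101, 117 and 93.3 in WT VEH_HC. Spock1, a proteoglycan gene, was at 277 and 263 TMM CPM against 398, 407 and 372 (log2 fold change -0.54, SE 0.08, adjusted p = 0.00123). Cdh24 (-0.58) was lost with the correction, and Amigo2, a cell adhesion gene of CA2, was called higher (0.39) in both fits. Without TAU MOL replicate 2 the counts were 4 and 0, with Cdh24 at an adjusted p of 0.0557 and Amigo2 at 0.194. Neither of the neighbouring fields showed such a count, with 1 higher and 1 lower of 10 CA1 markers and 2 and 2 of 14 dentate gyrus markers (2 and 0 and 1 and 0 with the correction), though the difference between fields was not tested. The synapse genes Homer3 (-0.49) and Grik4 were called lower, and Sv2b was not (-0.10, adjusted p = 0.424), and the authors picked all of them on these samples, which makes this no independent evidence. Homer3 was at 52.2 and 51.9 TMM CPM in TAU MOL, 76.0, 70.4 and 73.1 in WT VEH_HC, 61.3 and 69.6 in WT VEH and 73.3 and 77.0 in TAU VEH, and TAU MOL lay below every other library. Its difference from TAU VEH was -0.53 (adjusted p = 0.213 by edgeR and 3.52e-05 by DESeq2). Nts, the neurotensin gene, was at 3.18 and 2.82 TMM CPM against 1.75, 1.31 and 1.65, and its increase of 0.94 was lost with the GC correction (adjusted p = 0.188) and without TAU MOL replicate 1 (adjusted p = 0.101).

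Some endothelial genes were called lower, measured against a home-cage group in which replicate 2 was high. Of 18 endothelial and pericyte markers 4 were called lower and 1 higher, against 14.9% and 14% of all genes, and 2 and 1 with the GC correction. The median was -0.27, and 0.05 without home-cage replicate 2. Kdr, the main VEGF receptor gene, was at 10.4 and 9.40 TMM CPM in TAU MOL against 16.2, 25.1 and 17.9 (log2 fold change -1.0, SE 0.16, adjusted p = 0.00136), and -0.79 without home-cage replicate 2 (adjusted p = 0.000312). The tight junction gene Cldn5 (-0.96) and the receptor gene Tie1 (-0.86) changed by -0.67 and -0.51 without that library. Both were lost with the GC correction, at -0.72 (adjusted p = 0.0522) and -0.61 (adjusted p = 0.103), and Tie1 was lost without either TAU MOL library (adjusted p = 0.0759 and 0.094). Pecam1, the general endothelial adhesion gene, was at 12.9 and 11.8 TMM CPM against 13.5, 18.4 and 12.1, and its fold change of -0.25 did not pass the test (adjusted p = 0.239). The summed level of the list was 437 and 409 TMM CPM in TAU MOL and overlapped that of WT VEH_HC.

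The 12 largest decreases included genes of several kinds. Otof, a calcium sensor of exocytosis, was at 2.09 and 2.27 TMM CPM against 6.23, 5.46 and 4.90 (log2 fold change -1.34, SE 0.18, adjusted p = 0.000867). Heyl, a Notch target, was at 2.67 and 2.82 TMM CPM against 5.29, 8.26 and 5.38 (-1.20), and its difference from WT VEH and from TAU VEH was 0.01 each (SE 0.22 and 0.23). The prostaglandin transporter gene Slco2a1 (-1.21), the netrin gene Ntn5 (-1.52), the neuronal transcription factor gene Nhlh1 (-1.25), Fcgbp (-1.22), the riboflavin transporter gene Slc52a3 (-1.21) and the predicted gene Gm13341 (-1.14) were called in both fits. Nhlh1 and Gm13341 were lost without TAU MOL replicate 1 (adjusted p = 0.0586 and 0.0844) and Slc52a3 without replicate 2 (adjusted p = 0.0531). The collagen gene Col6a1 (-1.13) was lost with the GC correction and moved to -0.59 without home-cage replicate 2, and it was lost without either TAU MOL library (adjusted p = 0.0648 and 0.188). The predicted gene Gm10801 had 0 counts in both TAU MOL libraries and 1, 488 and 372 in WT VEH_HC, and with 0 counts also in the other 4 trained libraries it was detected in home-cage mice only, at a level that differed widely between them, and its call was lost without either TAU MOL library (adjusted p = 0.0891 and 0.098).

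Among large families, the median of 82 cytosolic ribosomal protein genes was 0.26, and -0.22 with the choroid plexus covariate, where 0 were called. Of them 28 were called higher and 0 lower, 22 and 0 with the GC correction and 60 and 0 with scaling by library size alone. That count moved from 1 without TAU MOL replicate 2 to 55 without home-cage replicate 3. Of 81 nuclear genes of oxidative phosphorylation 2 were called higher and 5 lower, 0 and 1 with the correction, 30 and 0 with scaling by library size alone, and 28 and 4 without home-cage replicate 3. Without TAU MOL replicate 2 no member was called. Proteasome genes gave 8 higher and 3 lower of 46, 0 and 3 with the correction and 20 and 0 with scaling by library size alone, with 0 higher without TAU MOL replicate 2 and 14 without home-cage replicate 3. The ubiquitin conjugating and deubiquitinating genes gave 17 and 12 of 78, 3 and 10 with the correction and 32 and 8 with scaling by library size alone, and 9 and 9 without TAU MOL replicate 2. Over all genes 14% were called higher and 14.9% lower, against which these family counts stand.

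Against WT VEH, which differs from TAU MOL in genotype and injection but not in training, 947 genes were called (5.63%), 103 higher and 844 lower, and 21 with the GC correction (0.125%). With scaling by library size alone the balance turned, with 757 higher and 326 lower. The other trained groups against the same 3 home-cage libraries gave 1413 calls in WT VEH (8.4%) and 5782 in TAU VEH (34.4%). These comparisons share their controls, so their values are only set side by side. Fos differed from WT VEH_HC by a log2 value of 2.05 for TAU MOL, 2.0 for WT VEH and 1.67 for TAU VEH. For Slc17a7 these values were -0.70, -0.03 and -0.66, and for Ttr 2.95, 4.47 and 1.26.

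**Figure D5:**
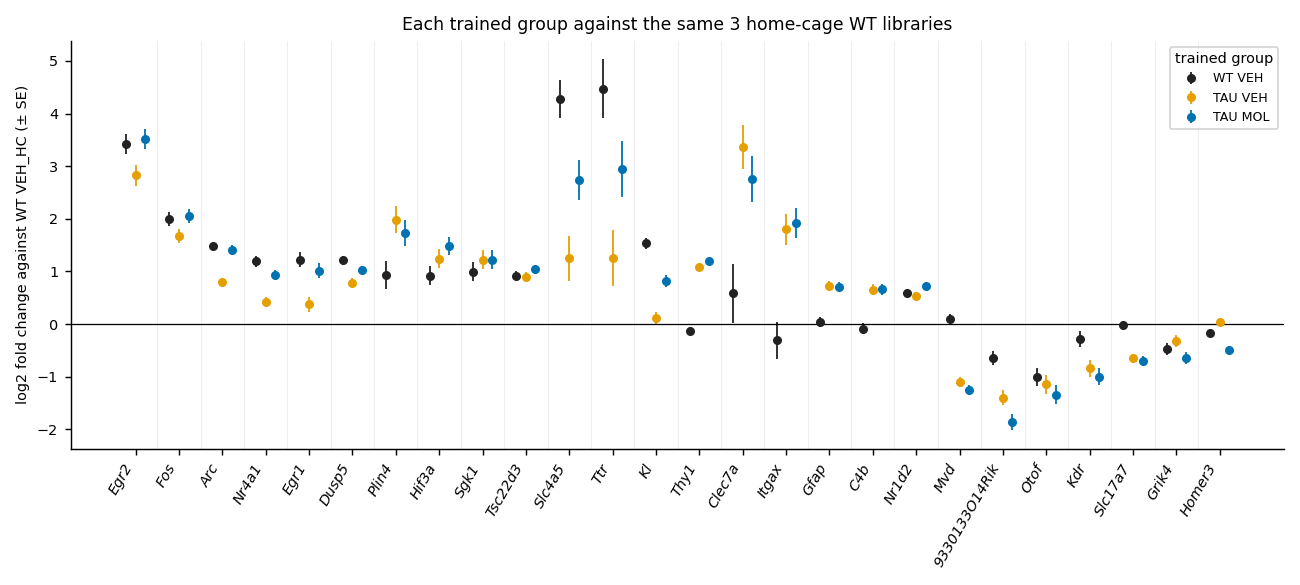
Log2 fold change of each trained group over the same 3 home-cage wild-type libraries (vertical axis, with SE as bars) for 26 named genes. For Thy1, Gfap and Mvd the TAU MOL and TAU VEH points lie together, for the IEG Arc the TAU MOL value of 1.40 lies by the WT VEH value of 1.47 and above the TAU VEH value of 0.79, and for Ttr the groups spread from 1.26 to 4.47.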

How the data were processed

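RNA-seq counts of 9 learning libraries and 5 basal libraries were analysed. The authors made poly-A libraries without strand information from each mouse, aligned single-end reads to mm9 with TopHat2 2.0.10 and Bowtie2 2.1.0 and counted uniquely aligned reads per Ensembl gene with HTSeq 0.5.4p3, and deposited raw counts. The deposited signal, counts divided by a size factor, was only compared with them, and the deposited fold changes and p-values of the authors' own tests were not used. The authors left out 3 learning libraries after sequencing, which are not analysed here. Of the learning table, 138 lines name no gene, and 0 columns were left without a sample.

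All 9 learning libraries entered 1 fit with 4 groups (edgeR 4.0.16, R 4.3.3, filterByExpr, TMM, quasi-likelihood F test, Benjamini-Hochberg adjustment), and the basal libraries a separate one. The common coefficient of variation was 0.084. The GC and length correction used loess offsets (span 0.3) inside each library, from the mm9 annotation, with a GC content for 99.8% of genes tested. DESeq2 1.42.0, other scalings and filters, left-out replicates and a choroid plexus covariate were alternatives. The method was run on simulated counts in which the groups did not differ in GC or length dependence or in cell content. That run could not test those differences. Groups and lists were chosen with earlier results of these data known. Genes named were Mapt, Thy1, Crebbp, Ep300 and those of the study's own lists. To these came the 12 largest called increases and decreases with at least 100 mean normalized counts and no overlap, and the 6 largest also called with the correction. Up to 3 per list and direction were added, and members given by value because they define a list. Others were marked as chosen later. Some genes that this rule names are not reported here. Over the 6 replicate pairs of the learning groups the smallest chi-square per degree of freedom was 10.5, above counting noise. Pairs of WT VEH_HC libraries were at 22.3 to 29.8 and pairs within the trained groups at 10.5 to 10.9. The home-cage group was thus the most variable, while the fit used 1 spread per gene for all 4 groups.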

Additional observations from a re-analysis of the deposited data

Results flagged for a closer look

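For 15 of the named genes, the difference of TAU MOL from the home-cage mice itself differed from that of the trained wild-type mice (WT VEH) from the same home-cage mice, by the direct edgeR contrast of TAU MOL and WT VEH at an adjusted p from 1.3e-05 to 0.039. Over all genes this contrast called 947 of 16820 (5.63%), and 21 with the GC correction (0.125%). Many named genes were picked for their change from the home-cage mice, so that share is no fair background for the 15. Of the 15, those higher in TAU MOL than in WT VEH were Thy1 (log2 difference 1.32), the microglial integrin gene Itgax (2.23), the complement gene C4b (0.75) and the astrocyte gene Gfap (0.68). Choroid plexus genes were lower in TAU MOL than in WT VEH, with log2 differences of -1.56 for Mfrp, -1.55 for Slc4a5, -1.47 for Aqp1, -1.0 for F5 and -0.71 for Kl. Lower as well were 1500015O10Rik (-1.37), which is in no list, Gm13341 (-1.61), Mvd (-1.36), its neighbour 9330133O14Rik (-1.23), the potassium channel gene Kcnh3 (-0.51) and the scaffold gene Homer3 (-0.33). With the GC and length correction, Thy1, Mvd, 9330133O14Rik, Gfap, C4b and Itgax stayed under an adjusted p of 0.05, and the other 9 did not. Their corrected log2 differences were -1.38 for Mfrp, -1.50 for Slc4a5, -1.36 for Aqp1, -1.30 for 1500015O10Rik, -1.09 for F5, -0.74 for Kl, -1.75 for Gm13341, -0.25 for Kcnh3 and -0.13 for Homer3.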

How the results depend on the processing

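The 4864 calls of TAU MOL against WT VEH_HC (2353 higher, 2511 lower) stayed within 1.5 times under DESeq2 (4573), DESeq2 size factors in edgeR (4858), no filter on low counts (5511), a mean of at least 10 counts (4890), the 5 libraries alone (3930) and no fold limit (4957). The GC and length correction gave 1594 calls (827 higher, 767 lower), a covariate for the choroid plexus score 46 (6 and 40), and scaling by library size alone 4430 higher and 1146 lower. Leaving out 1 library at a time gave 2319 to 5269 calls (1077 to 2657 higher, 1192 to 2612 lower), with 2319 without TAU MOL replicate 1 and 2405 without replicate 2, where the lone TAU MOL library was assumed to vary like the others. The correction gave 21 calls for TAU MOL against WT VEH, 743 for WT VEH against WT VEH_HC, 1773 for TAU VEH against WT VEH_HC and 12 in the basal experiment. DESeq2 called 54 genes between TAU MOL and TAU VEH and 41 in the basal experiment.

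Replicate numbers 1 and 2 recur in both groups, and the deviations of libraries with the same number correlated at 0.21 and 0.24, but they are different mice and only 2 numbers are shared, so they were not taken as pairs. A replicate block gave 5419 calls, 1677 (961 higher, 716 lower) together with the GC and length correction, and 3000 for WT VEH against WT VEH_HC.

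Under the choroid plexus covariate these log2 fold changes turned sign: Ccl4 to -0.83, Gabrg1 to -0.19, the receptor gene Nr3c1 to -0.013, the clock gene Per1 to -0.18 and Col6a1 to 0.68. The sign also turned for Aqp1 (-0.10), Clic6 (-0.43), Folr1 (-0.32), Mfrp (-0.59), Otx2 (-0.15) and Ttr (-0.29). The score was made from these markers themselves, so their loss of change under it was built in and is no result. That score separates the groups, and beyond that the cause was not tested. With 2 mice in TAU MOL, changes of low genes are the least certain.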

Other observations

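Genes of the mitochondrial genome depended on the correction, with 1 of 12 called lower and a median of -0.21 without it, and 10 called lower with a median of -0.67 with it. Without the correction, leaving out home-cage replicate 1 gave 6 called lower, and mt-Nd1 was lost without either TAU MOL library or home-cage replicates 2 or 3 (adjusted p = 0.07 to 0.209). For mt-Nd1, a subunit of complex I, the levels were 5711 and 6160 TMM CPM in TAU MOL and 6507, 8138 and 8172 in WT VEH_HC, and the log2 fold change moved from -0.36 to -0.81. For mt-Co1, a subunit of complex IV named after its values were seen, it moved from 0.26 to -0.12, and neither value passed the test, while leaving out home-cage replicate 3 gave 0.37 without the correction, which was called (adjusted p = 0.0321).

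The counts of this paragraph stand against 14% called higher and 14.9% lower over all genes, and 4.92% and 4.56% with the correction. Of 350 zinc finger genes named Zfp, 93 were called higher and 37 lower, with a median of 0.20, against 26 and 11 and a median of 0.06 with the correction. The counts were 53 and 16 without TAU MOL replicate 1, 31 and 20 without replicate 2, and 164 and 16 with scaling by library size alone. Of 14 clustered histone genes 3 were called higher and 0 lower, 2 and 0 with the correction, and 0 without TAU MOL replicate 2. Of 22 genes of the endoplasmic reticulum stress response 7 were called higher and 2 lower, among them the chaperone gene Hspa5 (0.42), 2 and 1 with the correction, 14 and 1 with scaling by library size alone, and 2 and 2 without TAU MOL replicate 1. Of 20 interneuron genes 3 were called higher and 2 lower, 3 and 1 with the correction, and of 18 oligodendrocyte genes 2 and 1, 0 and 0 with the correction, 3 and 6 without home-cage replicate 2, 5 and 1 without home-cage replicate 1, and 0 and 2 without TAU MOL replicate 1. Of 12 ependymal and meningeal genes edgeR and DESeq2 each called 0. In other edgeR fits 3 of them were called higher without home-cage replicate 2, 1 lower without replicate 1, 1 lower without replicate 3, 1 lower with the replicate block, and 1 higher and 5 lower with no filter on low counts. Of 5 red blood cell genes both tools called 0 as well, while edgeR called 1 higher without TAU MOL replicate 1, 1 with scaling by library size alone and 2 with no filter.

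In all, 11 called genes had 0 counts in both TAU MOL libraries, and all 11 were predicted genes with names starting with Gm.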
